A study of Mus musculus with 31 samples.

Results

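The genes described here are 6 interferon (IFN)-induced genes of the ADP-ribosylation system, *Parp9*, *Dtx3l*, *Parp10*, *Parp11*, *Parp12* and *Parp14*, and *Parp1*, the constitutive enzyme of the same family. They were found by gene name in a table of read counts from cultured mouse microglia and by the same Ensembl identifier in a table from mouse hippocampus. All 7 were present, of 54532 genes in the microglial table and 48795 in the hippocampal table, and all 7 passed the filter on low counts in both. The microglia were primary cells from cortices of newborn pups, either wild type (*Cgas*+/+) or lacking *Cgas* (*Cgas*-/-), the gene of the enzyme that senses DNA in the cytosol. Cells of each genotype received vehicle, tau fibrils at 2 µg per ml or herring testis DNA (HT-DNA, a stimulus that acts through cGAS) at 1 µg per ml. By the study's methods RNA was taken after 6 h, and each of the 6 groups had 3 libraries. The microglia had grown in mixed glial cultures with GM-CSF. A legend of the study calls the samples of a microglial group biologically independent, while the labels do not say from which cultures or pups they came, and the p-values measure the spread between these libraries. The hippocampi came from 6 *P301S* transgenic mice, which carry mutant human tau driven by the prion promoter, and from 7 non-transgenic (Ntg) mice, all aged 8 to 9 months by the labels and of both sexes. The *Cgas* genotype of these 13 mice is not given in the sources used here.

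ADP-ribosyltransferases of the PARP family take ADP-ribose from NAD+ and attach it to proteins. PARP1 is a nuclear enzyme that binds broken DNA and builds long chains of ADP-ribose. Most other members add single units, and several of their genes are transcribed in response to type I IFN. PARP10, PARP11, PARP12 and PARP14 are such mono-ADP-ribosyltransferases. PARP9 carries macrodomains that bind ADP-ribose and works in a complex with DTX3L, a ubiquitin ligase of the deltex family. Macrodomain proteins of viruses remove ADP-ribose, and PARP9, PARP12 and PARP14 are known for antiviral roles.

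*Parp14*, *Dtx3l* and *Parp9* lie side by side on mouse chromosome 16 (GRCm38), within chr16:35832874-35972605. *Parp14* (ENSMUSG00000034422, chr16:35832874-35871544) and *Dtx3l* (ENSMUSG00000049502, chr16:35926511-35939151) are on the minus strand, 54966 bp apart. *Parp9* (ENSMUSG00000022906, chr16:35938470-35972605) is on the plus strand and starts inside *Dtx3l*, with which it shares 682 bp, so the pair is arranged head to head. The other members stand apart. *Parp12* (ENSMUSG00000038507) is at chr6:39086410-39118349 on the minus strand, *Parp11* (ENSMUSG00000037997) at chr6:127446840-127494261 on the plus strand, *Parp10* (ENSMUSG00000063268) at chr15:76231174-76243441 on the minus strand and *Parp1* (ENSMUSG00000026496) at chr1:180568924-180601254 on the plus strand. Other annotated genes overlap 4 of the members on the same strand (*Plec* with *Parp10*, *Gm43633* with *Parp11*, *Gm49730* with *Parp14* and *Mir6904* with *Parp1*), and *Gm15564* lies antisense to *Parp9*. How reads in such overlaps were assigned is not given in the sources used here. The kit primes at the 3′ ends of transcripts, and the shared stretch of *Parp9* and *Dtx3l* is at their 5′ ends. The 1401 bp that *Plec* shares with *Parp10* are at the 3′ end of *Parp10*, so counts of *Parp10* are uncertain to that extent. *Gm15564* covers 5854 bp at the 3′ end of *Parp9* on the other strand, and use of strand is not given. Counts of *Parp9*, also per count of *Dtx3l*, are thus uncertain too.

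RefSeq promoter windows (GRCm38.p6, 250 bases before to 50 after an annotated start) were at hand for 4 of the 7 members, *Parp1*, *Parp11*, *Parp12* and *Dtx3l*. The 250 bases before the start are printed here for the constitutive gene and for 2 induced genes, to show how far their sequences differ. Capitals mark the only matches to the motifs searched, an IFN-stimulated response element core (GAAANNGAAA) and a gamma-activated site (TTCNNNGAA), each on both strands.
Parp1, chr1:180568641-180568890, plus strand: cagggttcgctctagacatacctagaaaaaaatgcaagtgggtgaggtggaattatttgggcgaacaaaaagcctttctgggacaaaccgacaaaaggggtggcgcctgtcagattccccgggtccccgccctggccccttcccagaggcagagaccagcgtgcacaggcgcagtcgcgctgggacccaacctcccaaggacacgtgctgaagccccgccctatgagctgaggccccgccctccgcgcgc
Parp11, chr6:127446590-127446839, plus strand: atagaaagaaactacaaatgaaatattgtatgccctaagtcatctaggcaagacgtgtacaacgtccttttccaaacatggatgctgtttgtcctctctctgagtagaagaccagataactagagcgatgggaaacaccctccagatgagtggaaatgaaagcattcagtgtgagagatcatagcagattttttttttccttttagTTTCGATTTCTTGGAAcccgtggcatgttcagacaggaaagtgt
Parp12, chr6:39118350-39118599, minus strand: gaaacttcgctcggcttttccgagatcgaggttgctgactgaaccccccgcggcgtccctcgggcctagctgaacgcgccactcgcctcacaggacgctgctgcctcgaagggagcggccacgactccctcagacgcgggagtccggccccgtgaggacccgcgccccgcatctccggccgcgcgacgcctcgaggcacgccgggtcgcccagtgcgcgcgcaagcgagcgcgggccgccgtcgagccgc
In *Parp11* the element TTTCGATTTC read on the minus strand as the response element core, 44 to 35 bases before the start, and overlapped a match to the gamma-activated site, TTCTTGGAA, 37 to 29 bases before it. The *Parp1*, *Parp12* and *Dtx3l* windows and a second *Parp11* window held no match to either motif. Of all 32851 promoter windows, 3.44% held the response element core and 8.30% the gamma-activated site. GC content of the printed stretches was 61.6% for *Parp1*, 40.4% for *Parp11* and 73.6% for *Parp12*.

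Libraries held 17037459 to 25174764 counts in microglia and 25953296 to 35779977 in hippocampus. Levels are given as CPM, counts scaled to a common library size by TMM (normalized CPM), and no mouse stood apart from its group for any member in 14 outlier tests (7 genes in 2 groups of mice; groups of 3 libraries are too small for it). Counts of the *Cgas* gene (listed as *Mb21d1*) were 434 to 812 in *Cgas*+/+ and 71 to 180 in *Cgas*-/- libraries, so reads remained in the knockout, and *Mapt* was 858 to 1125 CPM in *P301S* and 519 to 642 CPM in Ntg hippocampi. Both were as labelled. The cultures had 5366 to 7423 CPM over 8 general microglial markers, none at 0. The 7 homeostatic markers summed to 2221 to 2349 CPM in vehicle-treated *Cgas*+/+ cells, of which *Cx3cr1* made up 359.1 CPM, while *P2ry12*, *Tmem119*, *Sall1* and *Gpr34* averaged 8.20 to 18.2 CPM and *Siglech* was at 0 in every vehicle-treated library.

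In microglia *Parp1*, the DNA break sensor, had the narrowest range of the 7 genes. It was at 80.0, 86.8 and 82.8 CPM in the 3 vehicle-treated *Cgas*+/+ libraries, 69.8, 72.8 and 65.5 CPM with tau and 62.5, 65.2 and 59.4 CPM with HT-DNA. Without *Cgas* it was at 60.2, 61.9 and 61.6 CPM with vehicle, 56.5, 58.5 and 60.0 CPM with tau and 62.9, 55.9 and 59.3 CPM with HT-DNA. The *Cgas*+/+ libraries with vehicle or tau lay above all *Cgas*-/- libraries, which ran from 55.9 to 62.9 CPM, while those with HT-DNA overlapped them.

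*Parp9* and *Dtx3l*, the 2 partners of the reader and ligase complex, moved over a far wider range. *Parp9* was at 138.4, 93.6 and 123.4 CPM in *Cgas*+/+ cells with vehicle, 231.0, 215.7 and 231.9 CPM with tau and 270.9, 272.6 and 273.4 CPM with HT-DNA. In *Cgas*-/- cells it was at 21.0, 25.6 and 21.2 CPM with vehicle, 94.1, 85.5 and 86.3 CPM with tau and 21.5, 25.2 and 25.7 CPM with HT-DNA. The 3 *Cgas*+/+ groups rose in steps without overlap, and without *Cgas* only the tau group left the low level. *Dtx3l* was at 161.4, 108.1 and 152.5 CPM in *Cgas*+/+ cells with vehicle, 261.4, 234.6 and 267.4 CPM with tau and 321.2, 311.6 and 323.5 CPM with HT-DNA. Without *Cgas* it was at 22.3, 20.4 and 21.5 CPM with vehicle, 81.6, 78.2 and 81.8 CPM with tau and 21.6, 26.4 and 23.8 CPM with HT-DNA. The order of its groups was that of *Parp9*.

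The 4 mono-ADP-ribosyltransferases had the same order of groups. *Parp14*, a large macrodomain enzyme, was at 651.5, 401.2 and 534.4 CPM in *Cgas*+/+ cells with vehicle, 1316, 1153 and 1332 CPM with tau and 1435, 1424 and 1421 CPM with HT-DNA. Without *Cgas* it was at 41.0, 48.7 and 41.9 CPM with vehicle, 364.5, 367.2 and 353.7 CPM with tau and 44.3, 53.6 and 57.4 CPM with HT-DNA. The *Cgas*-/- tau libraries thus came close to the lowest *Cgas*+/+ vehicle library without reaching it. *Parp12*, a zinc finger enzyme, was at 211.6, 147.9 and 178.0 CPM in *Cgas*+/+ cells with vehicle, 381.7, 357.9 and 396.4 CPM with tau and 518.7, 540.1 and 530.6 CPM with HT-DNA. Without *Cgas* it was at 38.5, 38.6 and 36.2 CPM with vehicle, 162.5, 154.4 and 147.5 CPM with tau and 38.8, 41.3 and 38.9 CPM with HT-DNA. Here the *Cgas*-/- tau group overlapped the *Cgas*+/+ vehicle group.

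*Parp10*, a mainly cytoplasmic enzyme, was at 113.6, 69.9 and 93.4 CPM in *Cgas*+/+ cells with vehicle, 204.9, 176.5 and 203.3 CPM with tau and 275.3, 288.1 and 289.1 CPM with HT-DNA. Without *Cgas* it was at 20.9, 24.4 and 24.4 CPM with vehicle, 80.3, 76.5 and 67.5 CPM with tau and 25.4, 24.8 and 26.1 CPM with HT-DNA. As for *Parp12*, the *Cgas*-/- tau group overlapped the *Cgas*+/+ vehicle group. *Parp11*, a nuclear enzyme, was at 29.2, 22.6 and 24.5 CPM in *Cgas*+/+ cells with vehicle, 62.6, 55.3 and 58.7 CPM with tau and 72.5, 79.3 and 78.1 CPM with HT-DNA. Without *Cgas* it was at 9.10, 11.3 and 10.6 CPM with vehicle, 20.2, 19.7 and 21.4 CPM with tau and 13.9, 11.7 and 10.1 CPM with HT-DNA. It kept the order of groups but spanned fewer-fold between the lowest and highest group than the other induced members. For all 6 induced members the vehicle-treated *Cgas*+/+ replicate 1 was the highest and replicate 2 the lowest of that group, and *Cgas* itself had the same order there, at 27.2 and 18.8 CPM. The coefficient of variation of the induced members was 13.4% to 23.7% in that group and 0.462% to 4.70% in *Cgas*+/+ cells with HT-DNA.

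**Figure D1:**
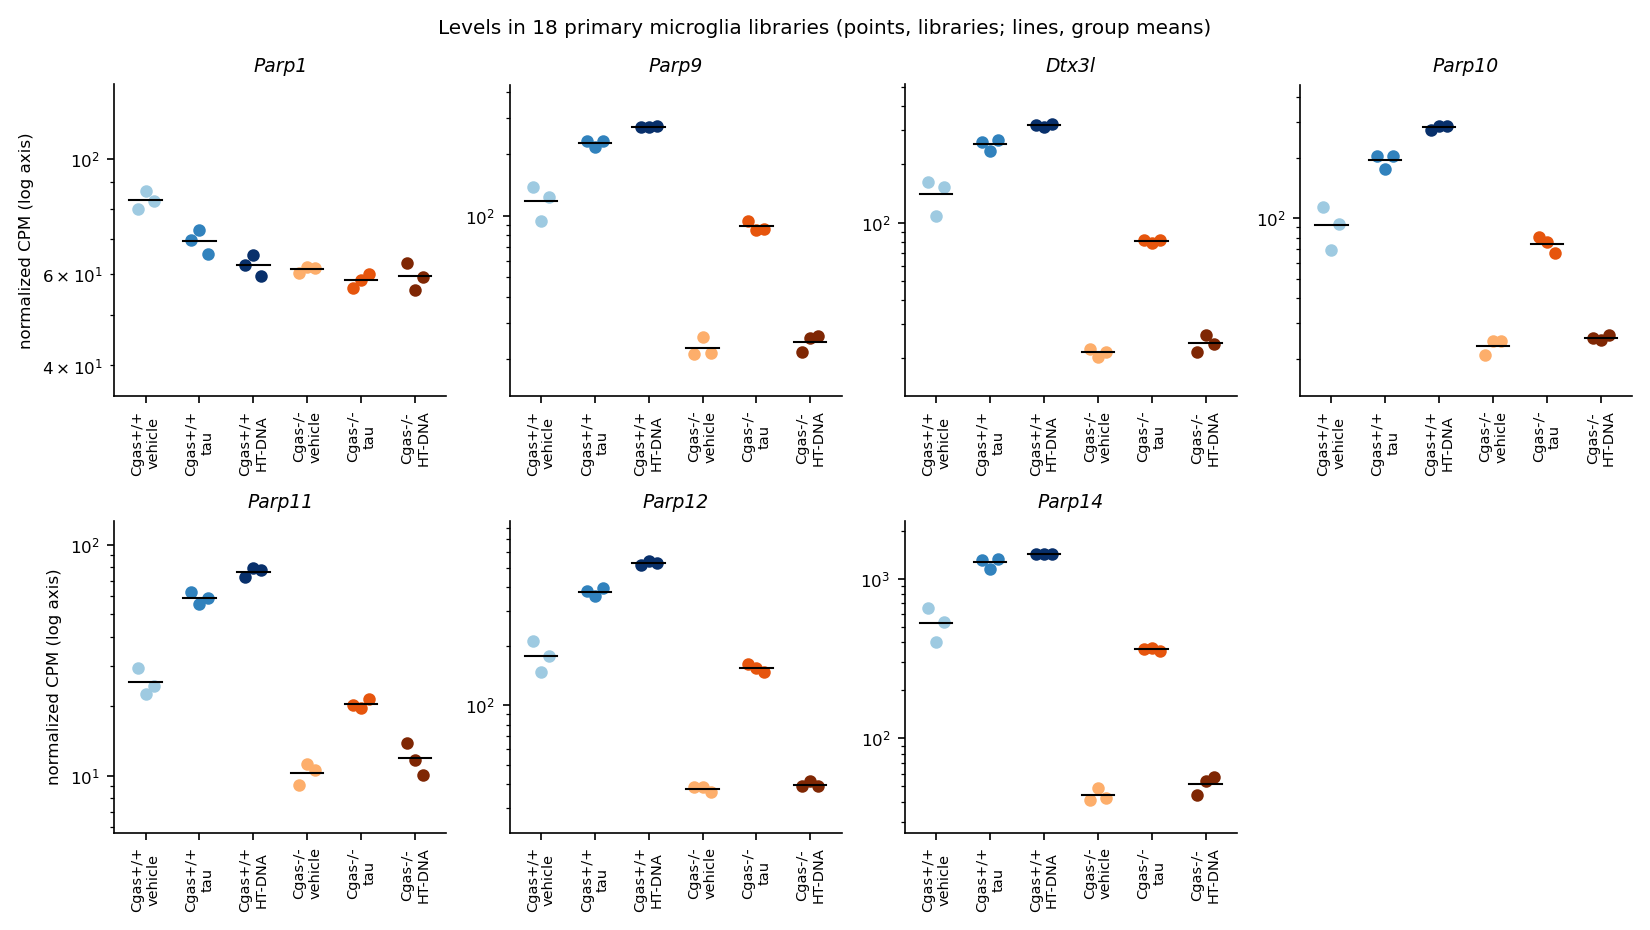
Normalized CPM (vertical log axis, a scale per gene) of the 7 members in the 6 microglial groups, with 1 point per library and a line at the mean of 3. *Parp1* stays between 55.9 and 86.8 CPM, whereas the induced members are highest in *Cgas*+/+ cells with HT-DNA and, without *Cgas*, rise with tau alone.

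Tau fibrils raised all 6 induced members in *Cgas*+/+ microglia, by 1.81-fold (*Dtx3l*) to 2.40-fold (*Parp14*). A gene is called here when its edgeR adjusted p is under 0.05 with a log2 fold change beyond 1. By that rule 4 of 6 were called higher, against 2.89% of all 13675 genes tested. All 6 were higher at an adjusted p under 0.05 with no minimum fold (15.8% of all genes), and in all 6 the tau libraries lay above every vehicle library (21.7% of all genes). *Parp14* changed by 1.26 on the log2 scale (SE 0.101, adjusted p = 5.66e-11), *Parp11* by 1.21 (SE 0.0846, adjusted p = 4.53e-12) and *Parp12* and *Parp10* by 1.08 each. *Parp9* (0.93, adjusted p = 4.48e-10) and *Dtx3l* (0.86, adjusted p = 2.92e-09), the 2 genes of the complex, rose but fell short of the size asked for. The median over the 6 was 1.08, beside -0.01 over all genes. *Parp1* fell by 0.26 on the log2 scale (SE 0.0518, adjusted p = 2.18e-04). The study named *Parp12* from these libraries, so its direction is not independent evidence. It named *Parp14* from single nuclei of tau mice, which are other samples. All members were chosen with earlier results of these data known. The count rests in part on the lowest vehicle library: without *Cgas*+/+ vehicle replicate 2 only 2 members were called, since *Parp10* moved to 0.91 and *Parp12* to 0.96. The share of all genes called in that run is not given here.

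HT-DNA raised the same 6 genes by 2.27-fold (*Dtx3l*) to 3.08-fold (*Parp10*). All 6 were called higher, against 5.29% of all genes, and in all 6 the groups did not overlap (26.0% of all genes were higher without overlap). The log2 fold changes were 1.62 for *Parp10*, 1.59 for *Parp11*, 1.56 for *Parp12*, 1.43 for *Parp14*, 1.20 for *Parp9* and 1.18 for *Dtx3l*, with SEs of 0.0725 to 0.101 and a highest edgeR adjusted p of 1.72e-12. Their median was 1.498, beside -0.03 over all genes. *Parp1* again went the other way and fell by 0.42 (SE 0.0524, adjusted p = 1.40e-07). The 2 comparisons share their vehicle libraries.

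Set directly against each other in *Cgas*+/+ cells, tau left the induced members at 68.6% (*Parp10*) to 88.8% (*Parp14*) of their level with HT-DNA. None passed the fold threshold, which 3.27% of all genes did in either direction by edgeR. By DESeq2 none did either, where 3.14% of all genes did. Before adjustment 6 of the 7 members were under 0.05, as were 42.7% of all genes, and 5 of the 6 induced members were lower at an adjusted p under 0.05 with no minimum fold (17.8% of all genes). In all 6 the tau libraries lay below every HT-DNA library (22.9% of all genes). *Parp10* differed by -0.54 on the log2 scale (adjusted p = 2.68e-05) and *Parp12* by -0.48 (adjusted p = 2.75e-06), while *Parp14* differed by -0.17 (SE 0.0988, adjusted p = 0.194, or 3.73e-04 without the filter on low counts and 0.00483 in a fit of these 2 groups alone). *Parp1* was higher with tau, by 0.15 (adjusted p = 0.0244), which no longer passed without tau replicate 1 (adjusted p = 0.140), tau replicate 2 (0.140) or HT-DNA replicate 3 (0.120), nor with RLE scaling (0.0722), without the filter on low counts (0.0543) or by DESeq2 (0.0894). *Parp9* was lower with tau by -0.27 (adjusted p = 0.0101), or 0.0528 without tau replicate 2.

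**Figure D2:**
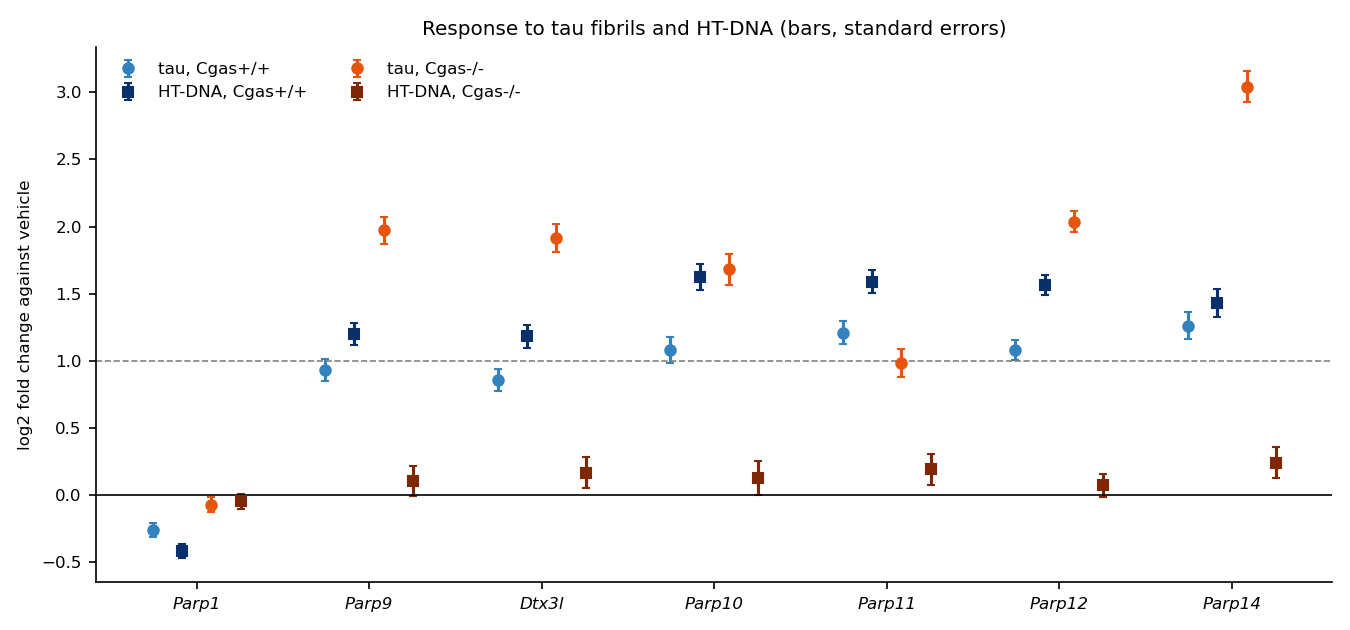
Log2 fold change against vehicle (vertical axis) of each member with tau or HT-DNA in *Cgas*+/+ and *Cgas*-/- microglia, with standard errors as bars and the threshold of 1 as a dashed line. With tau, *Parp14* reaches 3.04 in *Cgas*-/- cells, and with HT-DNA no member exceeds 0.24 there.

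Without *Cgas*, untreated cells held far less of every induced member. With vehicle, *Cgas*-/- cells had 8.30% of the *Cgas*+/+ level of *Parp14*, 15.2% of *Dtx3l*, 19.1% of *Parp9*, 21.1% of *Parp12*, 25.2% of *Parp10* and 40.6% of *Parp11*. All 6 were called lower, against 7.35% of all genes, and in all 6 every *Cgas*-/- library lay below every *Cgas*+/+ library, as for 30.9% of all genes. *Parp14* differed by -3.59 on the log2 scale (SE 0.115, edgeR adjusted p = 9.49e-20) and *Parp11*, the least affected, by -1.30 (SE 0.103, adjusted p = 2.22e-11). The median of the 6 was -2.32, beside -0.01 over all genes. *Parp1* was also lower, at 73.6%, with a log2 difference of -0.44 (adjusted p = 4.61e-08). With vehicle the 3 chromosome 16 genes were the 3 with the lowest remaining share, but not with the treatments. With tau *Parp9* kept 0.392 of its *Cgas*+/+ level and *Parp11* 0.348. With HT-DNA *Parp9* kept 0.0891 and *Parp12* 0.0750.

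With HT-DNA the gap between the genotypes was wider than with vehicle for all 6 induced members, and with tau it was narrower for 5 and wider for *Parp11* (34.7%, beside 40.6% with vehicle). With tau, *Cgas*-/- cells had 28.6% (*Parp14*) to 40.9% (*Parp12*) of the *Cgas*+/+ level, and all 6 induced members were called lower (7.41% of all genes) without overlap (29.1% of all genes). With HT-DNA they had 3.63% (*Parp14*) to 15.6% (*Parp11*), and again all 6 were called lower (11.8% of all genes) without overlap (31.8% of all genes). Median log2 differences were -1.45 with tau and -3.61 with HT-DNA. *Parp1* was at 84.0% with tau and 95.2% with HT-DNA, the latter with an adjusted p of 0.239.

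Markers of other cells also differed between the genotypes. The 6 astrocyte markers summed to 4.80 to 14.6 CPM over all *Cgas*+/+ libraries and 0.689 to 1.81 CPM over all *Cgas*-/- libraries, and with vehicle 2 of the 5 tested were called lower without *Cgas*. The 6 fibroblast markers summed to 1.96 to 7.27 and 0.419 to 0.882 CPM, with 3 of 4 tested called lower. The 5 endothelial markers summed to 105.9 to 390.6 and 27.5 to 37.3 CPM, with 3 of 3 tested called lower. None of these lists had a marker called higher without *Cgas*. These ranges pool the treatments. With vehicle alone the astrocyte sums were 4.80 to 6.07 and 0.990 to 1.51 CPM, and the endothelial sums 105.9 to 125.3 and 27.5 to 32.6 CPM. In *Cgas*+/+ cells the endothelial sum was 141.9 to 177.3 CPM with tau. With HT-DNA it was 379.6 to 390.6 CPM, and all 3 tested endothelial markers were called higher than with vehicle. *Flt1* and *Kdr* made up most of the endothelial sum, at 92.8 and 22.8 CPM with vehicle in *Cgas*+/+ cells, and *Cldn5* was at 0 in *Cgas*-/- cells with vehicle. The 6 oligodendrocyte markers summed to 77.8 to 88.5 CPM in *Cgas*+/+ and 45.7 to 47.5 CPM in *Cgas*-/- cells with vehicle, with 2 of 3 tested called lower, and the 6 neuronal markers to 0.532 to 1.35 and 0.528 to 1.90 CPM. The 8 microglial markers summed to 7102 to 7423 CPM and 5366 to 5808 CPM, and 1 of 8 was called lower with vehicle. The part of these differences in the level of the PARP genes was not tested.

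Tau still raised the induced members in cells without *Cgas*, from 1.98-fold (*Parp11*) to 8.24-fold (*Parp14*). Of the 6, 5 were called higher, against 2.46% of all genes, and all 6 tau groups lay above their vehicle groups (17.4% of all genes). The log2 fold changes were 3.04 for *Parp14* (SE 0.113, adjusted p = 8.09e-18), 2.04 for *Parp12*, 1.97 for *Parp9*, 1.91 for *Dtx3l* and 1.68 for *Parp10*, with 0.98 for *Parp11* (SE 0.105, adjusted p = 2.03e-08). *Parp1* did not pass the test (-0.07, adjusted p = 0.442). With tau, the *Cgas*-/- cells reached 57.2% (*Dtx3l*) to 86.4% (*Parp12*) of the mean that untreated *Cgas*+/+ cells had.

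On the log2 scale the tau response was larger without *Cgas* for 5 of the 6 induced members, as tested by the interaction of treatment with genotype (3.61% of all genes had a higher interaction at an adjusted p under 0.05). The interaction was 1.78 for *Parp14* (SE 0.148, edgeR adjusted p = 2.13e-09), 1.06 for *Dtx3l*, 1.04 for *Parp9*, 0.96 for *Parp12* and 0.60 for *Parp10* (adjusted p = 0.0114). *Parp11* was the exception, at -0.23 (SE 0.136, adjusted p = 0.388). In normalized CPM the order of the genotypes was the opposite. The tau increment of *Parp14* was 317.9 CPM without *Cgas* and 738.0 CPM with it, and that of *Parp11* was 10.1 and 33.5 CPM. Over the 6 members the increment without *Cgas* was 30.3% (*Parp11*) to 61.3% (*Parp9*) of that with it, so the larger fold stood on a lower starting level.

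No member was called with HT-DNA in *Cgas*-/- cells. By edgeR 0.0219% of all genes were called there, and by DESeq2, which called no member either, 0.0454%. *Parp14* alone had an unadjusted p under 0.05, as 12.3% of all genes had, and without the filter on low counts its adjusted p was 4.63e-04 at a log2 fold change of 0.24. Log2 fold changes ran from 0.07 (*Parp12*, adjusted p = 0.807) to 0.24 (*Parp14*, SE 0.114, adjusted p = 0.385), with a median of 0.15. All 6 were above 0, and for *Parp10* and *Parp12* the 3 HT-DNA libraries lay above the 3 vehicle libraries, as for 10.4% of all genes. The interaction of HT-DNA with genotype was negative for all 6 induced members (16.6% of all genes), from -1.01 (*Dtx3l*, edgeR adjusted p = 1.62e-06) to -1.496 (*Parp10*, adjusted p = 1.25e-08). For *Parp1* it was 0.37 (SE 0.0747, adjusted p = 2.58e-04), with a fall in *Cgas*+/+ cells and -0.05 in *Cgas*-/- cells. The HT-DNA increments of the induced members without *Cgas* were 0.548% (*Parp12*) to 3.13% (*Parp11*) of those with it.

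**Figure D3:**
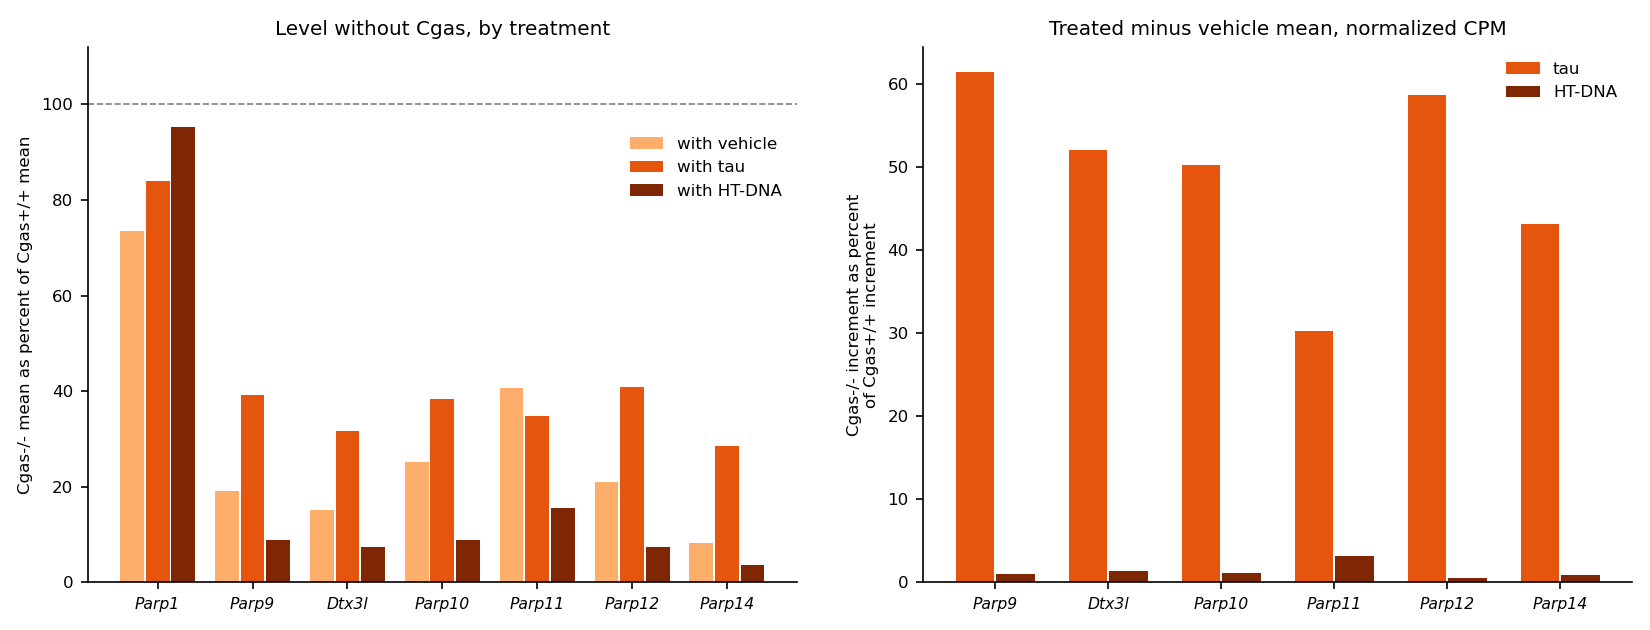
Left, mean level of each member in *Cgas*-/- cells as a percent of the *Cgas*+/+ mean (dashed line, 100), by treatment. Right, the increase over vehicle in *Cgas*-/- cells as a percent of that in *Cgas*+/+ cells (both in normalized CPM): 30.3% to 61.3% with tau and at most 3.13% with HT-DNA.

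The proportion of the 2 head-to-head genes was also followed, within each library. Counts of *Parp9* per count of *Dtx3l* were 0.844 ± 0.0305 (SD, n = 3) with vehicle, 0.890 ± 0.0268 with tau and 0.854 ± 0.0176 with HT-DNA in *Cgas*+/+ cells. In *Cgas*-/- cells they were 1.06 ± 0.170, 1.10 ± 0.0494 and 1.01 ± 0.0640. Every *Cgas*-/- library was above every *Cgas*+/+ library, the lowest being 0.942 and the highest *Cgas*+/+ value 0.919. These proportions were not tested.

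Across the 18 microglial libraries the 6 induced members ran almost in parallel, with Pearson correlations of their log2 levels of 0.947 to 0.998 over the 15 pairs. The 18 libraries share 6 groups, so these values mainly describe the group means. *Parp1* correlated with each of the 6 at 0.267 to 0.402. The genes outside the set whose levels were most like a member included many known IFN-induced genes. For *Parp14* they were *Rnf213* (r = 0.998), *Gm20559* (0.998) and *Eif2ak2* (0.998), the last the gene of the RNA-activated kinase PKR. *Parp9* ran closest to *Irgm1*, *Slfn8* and *Ddx58*, the RIG-I gene, each at 0.999. *Dtx3l* ran closest to *Znfx1* (0.998), *Ifit3b* (0.998) and *Irgm2* (0.998), and *Parp12* to *Phf11d* (0.999), *Helz2* (0.999) and *Ifi209* (0.999). *Parp10* was most like *Ifih1* (0.998), the MDA5 gene, *Igtp* (0.998) and *Tpst1* (0.997). *Parp11* was most like *Isg20* (0.994), *Slc25a22* (0.993) and *Apobec3* (0.993). For *Parp1* the nearest were *Gdpd5* (0.968), *Ttc28* (0.958) and *Ncapd2* (0.955), the last a condensin subunit.

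Fewer of the other genes of the family were called at the fold threshold. At an edgeR adjusted p under 0.05 with no minimum fold, 5 of 10 were higher with tau in *Cgas*+/+ cells (15.8% of all genes). By the same rule 8 were higher and 2 lower with HT-DNA, and 3 were higher with tau in *Cgas*-/- cells. Shares of all genes for these last counts are not given here. Of the 10 other PARP genes, 1 was called higher with tau in *Cgas*+/+ cells, *Parp8* (1.19, SE 0.124, edgeR adjusted p = 9.76e-09), and the median of the 10 was 0.17. With HT-DNA 2 were called higher, *Parp8* (1.54) and *Parp3* (1.30), a DNA repair enzyme, and 1 lower, *Parp16* (-1.09), an enzyme of the endoplasmic reticulum. None was called with either treatment in *Cgas*-/- cells. Between the genotypes none was called with vehicle, *Parp8* was lower without *Cgas* with tau (-1.02), and *Parp8* (-2.32) and *Parp3* (-1.18) were lower with HT-DNA. The interaction of HT-DNA with genotype passed for 8 of the 10, with 7 lower and *Parp16* higher (1.38). Of the deltex ligases *Dtx1* to *Dtx4*, 3 could be tested and none was called with tau or HT-DNA. Of 9 genes that remove or read ADP-ribose, none was called with tau and 1 with HT-DNA in *Cgas*+/+ cells, *Macrod2* (-1.15, adjusted p = 0.0137), the gene of a macrodomain hydrolase. Of 10 genes of NAD metabolism tested, none was called with tau in *Cgas*+/+ cells and 1 with HT-DNA, *Nampt* (1.25), whose enzyme makes the NAD precursor NMN. In *Cgas*-/- cells tau raised *Cd38* (1.03), the gene of an enzyme that consumes NAD, and none of the 10 was called lower. With vehicle, *Cd38* (1.20) and *Bst1* (1.19), of the same enzyme family, were called higher without *Cgas*.

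Of 13 regulators of the IFN pathway, 5 were called higher with tau in *Cgas*+/+ cells and none lower. Among them were *Usp18* (1.59), a brake on the receptor, *Irf7* (1.57), *Irf1* (1.08) and *Stat2* (1.02). With HT-DNA 7 were called higher, among them *Socs1* (1.34) and *Ifnb1* (4.44, SE 0.579). *Ifnb1*, the gene of IFN-β, averaged 4.52 CPM with HT-DNA, 0.250 CPM with tau and 0.202 CPM with vehicle in *Cgas*+/+ cells, and was at 0 in all *Cgas*-/- libraries with vehicle or HT-DNA. In *Cgas*-/- cells tau raised 7 of the 13, among them *Stat2* (2.74) and *Irf9* (1.46), and HT-DNA none. With vehicle 8 of 13 were called lower without *Cgas*, among them *Stat2* by -3.58 and *Irf9* by -1.54 on the log2 scale. Both encode transcription factors of the type I IFN response.

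In hippocampus the 6 induced members had mean levels above Ntg in *P301S* mice, but few passed the test and no group stood clear of the other. *Parp14* was at 1.97, 2.67 and 3.24 CPM (lowest, median and highest) in Ntg and at 2.21, 8.96 and 14.4 CPM in *P301S* mice. *Parp12* was at 7.62, 8.89 and 9.71 CPM in Ntg and at 8.56, 15 and 18.7 CPM in *P301S* mice. In both genes the lowest *P301S* mouse lay within the Ntg range, and the spread was wider in *P301S* mice (coefficients of variation of 59.2% and 27.7%) than in Ntg (15.1% and 7.30%). *Parp9* was at 2.69, 3.04 and 3.89 CPM in Ntg and at 1.93, 7.98 and 10.2 CPM in *P301S* mice, and *Dtx3l* at 6.26, 7.46 and 9.52 and at 4.77, 10.2 and 13.9 CPM. *Parp10* was at 1.52, 1.92 and 2.48 CPM in Ntg and at 1.72, 3.11 and 5.95 CPM in *P301S* mice. *Parp11* did not share this pattern, at 18, 19.5 and 21.5 CPM in Ntg and 18.5, 20.1 and 21.0 CPM in *P301S* mice. *Parp1* was at 93.5, 113.4 and 132.8 CPM in Ntg and 74.1, 96.2 and 130.7 CPM in *P301S* mice.

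**Figure D4:**
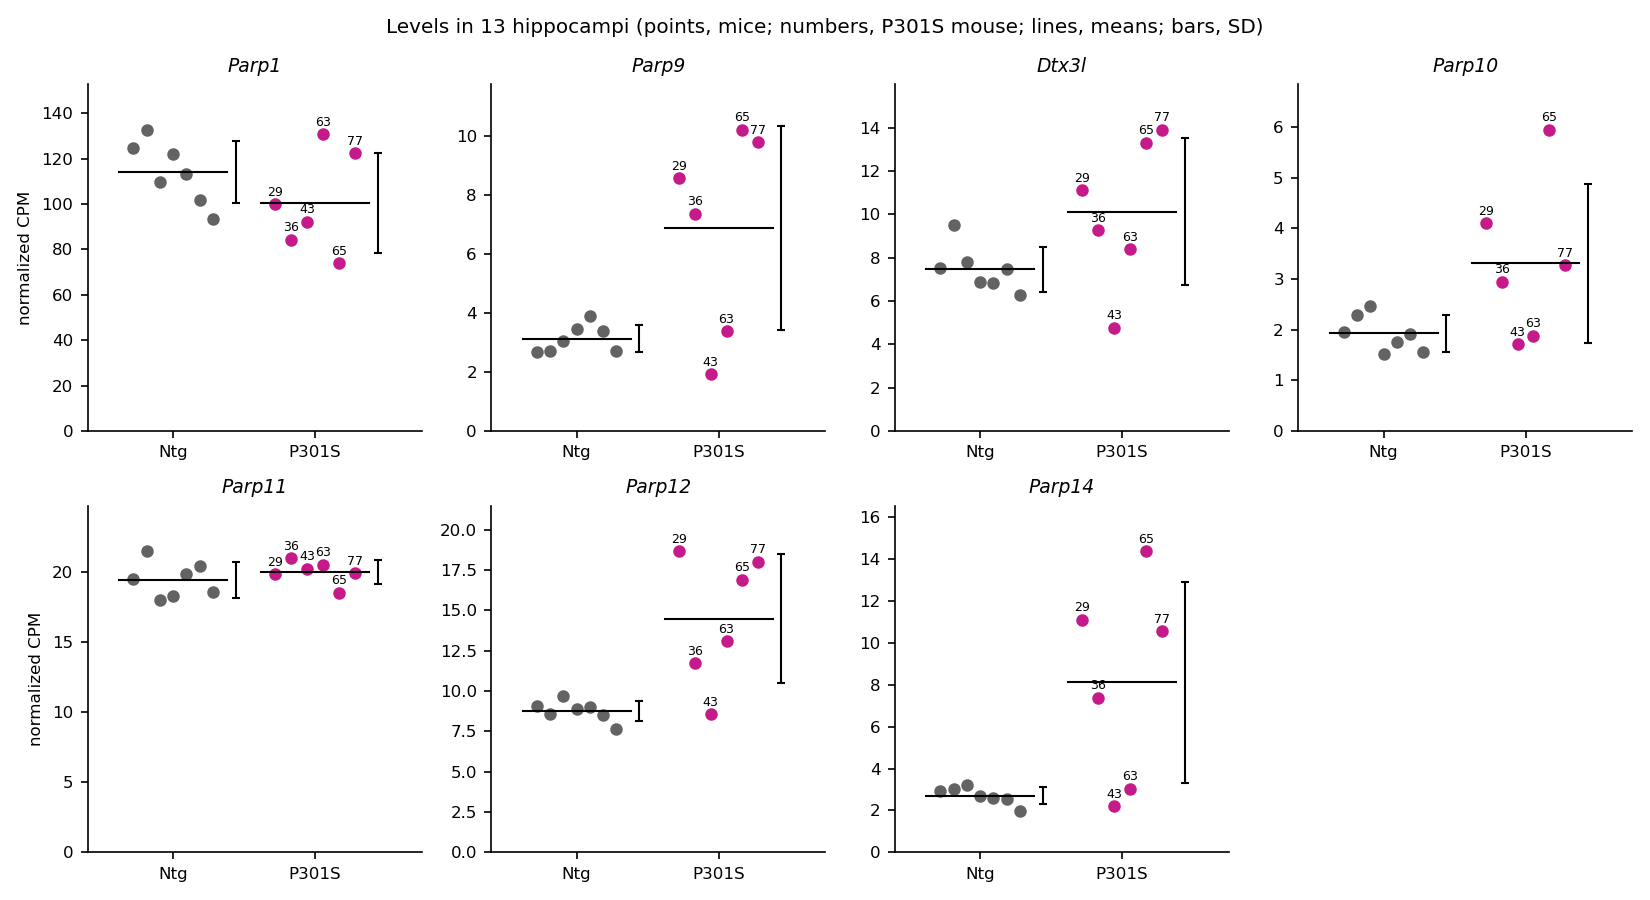
Normalized CPM (vertical axis, from 0, a scale per gene) of the 7 members in hippocampi of 7 Ntg and 6 *P301S* mice, with 1 point per mouse, a line at the mean and a bar for the SD. Mouse 43 and, except for *Parp12*, mouse 63 of the *P301S* group lie within or below the Ntg range.

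The edgeR test called 2 of the 6 higher in *P301S* mice (adjusted p under 0.05, with 0.5 as the smallest log2 fold change), against 1.32% of 16453 genes tested, and no member had groups without overlap (0.438% of all genes were higher without overlap). *Parp14* changed by 1.58 (SE 0.355, adjusted p = 0.0430) and *Parp12* by 0.72 (SE 0.156, adjusted p = 0.0371). By DESeq2 3 members were called, *Parp9* with them, against 3.30% of all genes. *Parp9* was at 1.14 (SE 0.311, adjusted p = 0.0784), *Parp10* at 0.78 (adjusted p = 0.144), *Dtx3l* at 0.44 (adjusted p = 0.298) and *Parp11* at 0.04 (SE 0.0621, adjusted p = 0.820), and the median of the 6 was 0.75, beside 0.00 over all genes. *Parp1* was at -0.18 (adjusted p = 0.550). Two-sided exact permutation tests over mice gave p = 0.0035 for *Parp12*, 0.0146 for *Parp14*, 0.0315 for *Parp10*, 0.0437 for *Parp9*, 0.135 for *Dtx3l*, 0.177 for *Parp1* and 0.350 for *Parp11*, where the smallest p that 7 against 6 mice allow is 0.000583. Neither call was firm. Leaving out each mouse in turn, *Parp14* kept a log2 fold change of 1.33 to 1.78 but missed the adjusted threshold in 11 of 13 runs, and *Parp12* kept a log2 fold change of 0.64 to 0.84 and missed it in 9 of 13. The number of members called ran from 0, without any of 9 mice (Ntg 35, 46, 61, 62, 68 and 71 and *P301S* 29, 36 and 65), to 5 without *P301S* mouse 43, and was 3 without *P301S* mouse 63 and 1 without Ntg mouse 55 or *P301S* mouse 77. The share of all genes called in these runs is not given here, so the swing cannot be read as particular to these genes.

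The *P301S* mice differed among themselves. Mice 29, 65 and 77 exceeded every Ntg mouse in 5 of the 6 induced members and mouse 36 in 4, whereas mouse 63 did so in 1 (*Parp12*) and mouse 43 in none. The microglial markers followed nearly the same order. Their sum over 8 genes was 332.2 to 406.3 CPM in Ntg, and 1173, 1113, 352.8, 397.7, 1147 and 630.3 CPM in *P301S* mice 29, 36, 43, 63, 65 and 77. Of the 8, 3 were called higher (*Tyrobp* 1.997, *C1qa* 1.94 and *Trem2* 1.70), none was at 0, and the 7 homeostatic markers had none called. The homeostatic markers nevertheless summed to 256.5 to 313.8 CPM in Ntg and to 535.7, 535.7, 552.5 and 407.5 CPM in *P301S* mice 29, 36, 65 and 77. In *P301S* mice 43 and 63 they summed to 244.9 and 287.4 CPM, so their sum separated the same mice as the induced members. The 6 astrocyte markers summed to 1445 to 1642 CPM in Ntg and 1466 to 4606 CPM in *P301S* mice, also lowest in mouse 43, with 1 called (*Gfap* 2.22). In bulk tissue more cells of a type and more RNA per cell cannot be told apart. With the mean of the homeostatic markers as a covariate no member was called, and *Parp14* was at 0.75 (adjusted p = 0.127) and *Parp12* at 0.53 (adjusted p = 0.156). The share of all genes called with this covariate is not given here, so the loss of calls cannot be read as particular to these genes. No list of markers fixed for hippocampal cell types (microglia, astrocytes, oligodendrocytes, neurons, fibroblasts, endothelium) had a gene at 0 in either group. The T cell markers summed to 1.02 to 2.39 CPM in Ntg and 1.02 to 4.92 CPM in *P301S* mice.

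**Figure D5:**
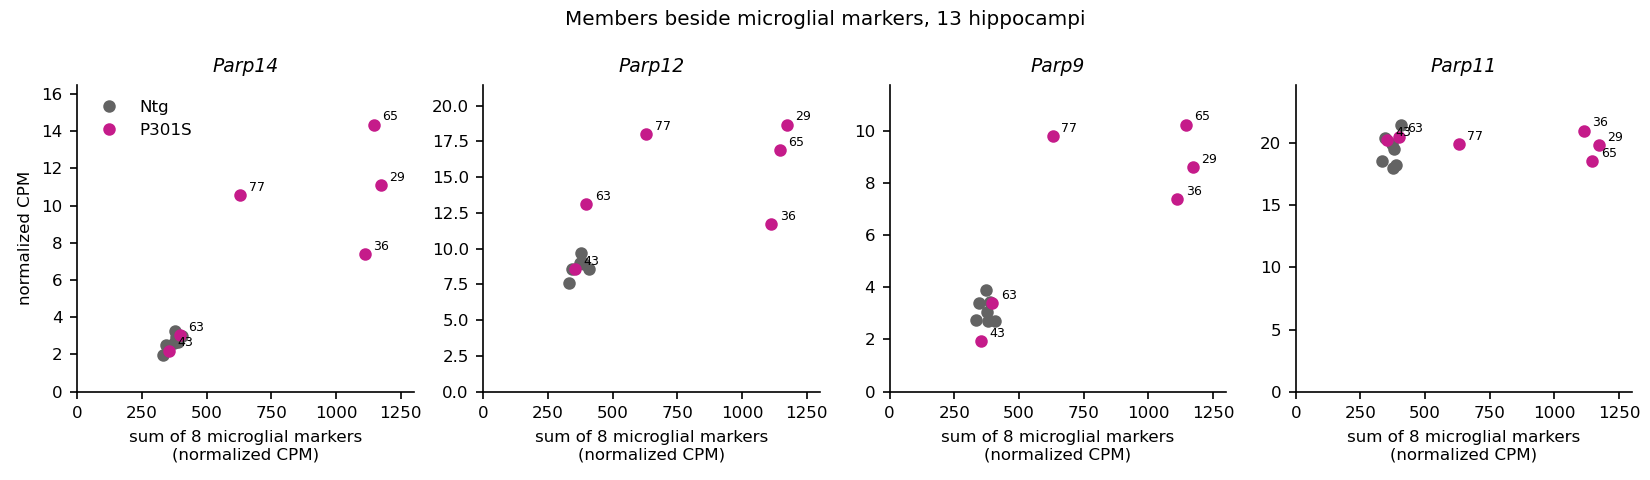
Level of 4 members (vertical axis, normalized CPM) against the sum of 8 microglial markers (horizontal axis, normalized CPM) in 13 hippocampi, with *P301S* mice numbered. Mice 43 and 63 lie among the Ntg mice in marker sum, and mouse 77 has *Parp14*, *Parp12* and *Parp9* near those of mice 29 and 65 at a marker sum of 630.3 CPM.

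The difference between *P301S* and Ntg did not pass a test of interaction with sex for any member, where 0% of 16453 genes did at an edgeR adjusted p under 0.05. Before adjustment 3897 genes (23.7%) were under 0.05. Among the members *Parp1* alone had an unadjusted p under 0.05 (0.62, adjusted p = 0.106). With sex as a covariate *Parp14* was at 1.58 (adjusted p = 0.0607) and *Parp12* kept its call (adjusted p = 0.0467). Of the 10 other PARP genes 1 was called, *Parp3* (0.95, SE 0.205, adjusted p = 0.0386), and none of 4 deltex ligases, 9 erasers and readers of ADP-ribose or 12 tested genes of NAD metabolism was. Of 12 IFN regulators tested, 3 were called higher, *Usp18* (2.71), *Irf7* (2.42) and *Irf9* (1.24), each with an adjusted p of 0.0303. *Parp9* per *Dtx3l* count was 0.284 to 0.569 in Ntg and 0.404 to 0.796 in *P301S* mice.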

How the data were processed

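RNA-seq counts of 18 microglial and 13 hippocampal libraries were analysed. Per the labels, libraries were made with a 3′ mRNA kit (QuantSeq FWD). The values deposited by the authors are raw read counts per Ensembl gene, 1 column per library, with no normalization. The submitters' processing notes name GRCm38, edgeR and limma, while aligner, counter, annotation and use of strand are not given in the sources used here. All 31 columns were matched to samples by name.

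Counts were tested in R 4.3.3 with edgeR 4.0.16 (TMM, filterByExpr, quasi-likelihood F test), with 1 fit of the 6 microglial groups and 1 of the 2 hippocampal groups, and Benjamini-Hochberg adjustment over 13675 and 16453 genes. A call needed an adjusted p under 0.05 with a fold of more than 1 (microglia) or 0.5 (hippocampus) in log2, and interactions the adjusted p alone. With 3 against 3 libraries an exact permutation test cannot go below 0.10, so none was run in microglia. Fold changes are per gene on 3′ counts. Levels were not compared between tables, nor between genes apart from the counts of *Parp9* per count of *Dtx3l*, which are not per length. Positions came from the GENCODE annotation of GRCm38 and promoter sequences from RefSeq. The scripts were tested on simulated data, where the microglial fit recovered fewer of the changes than the limit first set, which was then lowered, and DESeq2 in the hippocampal design made more false calls than its nominal rate.

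All 7 members are named. Of the other lists (10 PARP genes, deltex ligases, ADP-ribose erasers and readers, NAD metabolism, IFN regulators) genes called in tau or HT-DNA against vehicle in *Cgas*+/+ cells or in *P301S* hippocampus were named, except an item that is not reported here. *Irf9*, *Cd38* and *Bst1* in *Cgas*-/- cells were named after their values were seen. The 3 most similar genes per member had the highest Pearson correlation of log2 CPM (prior count 2). The members and lists were chosen with earlier results of these data known. Depth was 17037459 to 35779977 counts per library.

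Alternatives were DESeq2 1.42.0, RLE scaling, no filter, no minimum fold, only the compared groups, a replicate block, sex or homeostatic markers as a covariate, and leaving out each library. Replicate numbers did not pair the microglial libraries.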

Additional observations from a re-analysis of the deposited data

Results flagged for a closer look

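The response to each treatment differed between the *Cgas* genotypes by the interaction term of the edgeR fit. For tau the differences (*Cgas*-/- minus *Cgas*+/+, log2 scale) were 1.04 for *Parp9*, 0.60 for *Parp10*, 0.96 for *Parp12*, 1.78 for *Parp14* and 1.06 for *Dtx3l*. For HT-DNA they were -1.10 for *Parp9*, -1.496 for *Parp10*, -1.40 for *Parp11*, -1.49 for *Parp12*, -1.19 for *Parp14* and -1.01 for *Dtx3l*, and 0.37 for *Parp1*. The tau differences held for fold changes only, since on the CPM scale the increment of each of these 5 genes was smaller without *Cgas* (43.1% to 61.3% of that with it). No member was far from the others of its group in 14 tests (7 genes in 2 groups of mice), where chance alone flags about 1 in 20.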

How the results depend on the processing

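Of 980 values of 77 results under alternatives, 946 kept their direction and side of the threshold for a call (adjusted p and fold together), 25 lost the threshold, 9 gained it and none reversed. With no minimum fold, the members called with tau in *Cgas*+/+ cells went from 4 to 7 and those between tau and HT-DNA from 0 to 6, by construction. Both counts include *Parp1*, which went the other way from the induced members. At that threshold 15.8% of all genes were higher with tau than with vehicle, and 17.8% were lower with tau than with HT-DNA. Leaving out 1 library gave 2 to 5 members called with tau in *Cgas*+/+ cells (2 without vehicle replicate 2, 5 without vehicle replicate 1) and 5 to 6 with tau in *Cgas*-/- cells, where *Parp11* crossed a log2 fold change of 1. In hippocampus 2 members were called, 1 with sex as a covariate, 0 with the homeostatic markers as a covariate and 0 to 5 leaving out 1 mouse. The cause was not tested. Shares of all genes called with a covariate or with 1 library left out are not given here. Changes in these counts therefore cannot be read as particular to the members. Replicate numbers did not pair the microglial libraries (45 pairs of same-numbered libraries, correlations of their deviations -0.0850 to 0.0823, none over 0.1), and with the replicate block the count with tau in *Cgas*+/+ cells stayed at 4 and no call of a member changed. All 54 pairs of libraries within a group differed by more than sampling noise. In hippocampus *Parp9*, *Parp10* and *Parp14* had means of 1.93 to 3.13 CPM in Ntg mice, 41 to 111 counts per library, which limits the precision of their fold changes. No paired analysis was possible in hippocampus because the mouse numbers are not shared between genotypes.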
